A study of Mus musculus with 4 samples.

Results

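A group of 10 genes, named young neuron genes and chosen by their low log2 signal on the P5-labelled array relative to the others, was followed through the developing mouse pontine nucleus: Cd24a, Gpc2, Islr2, Igfbpl1, Ablim3, Tmsb10, Stk32b, Mex3a, Nnat and Nrep. They are 10 of 19938 named genes. Whether the name of the group holds for each of them was not tested. Where a gene had several probe sets, the brightest on average over all 4 arrays stood for it. The tissue came from ICR mice, for which the labels give no further genotype, at embryonic day 17.5 (E17.5) and at P1, P5 and P14 (postnatal days 1, 5 and 14). A single pool of tissue on 1 Affymetrix array stood for each age, made from 27 mice at E17.5, 16 at P1, 13 at P5 and 12 at P14. The labels name no treatment. Because there was 1 array per age, no test could be run, and every difference below is between single arrays. Because dissected tissue was pooled, fewer cells of a type and less RNA per cell cannot be told apart.

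The pontine nucleus is a large relay in the ventral pons whose glutamatergic neurons carry cortical signals to the cerebellum as mossy fibres. They arise in the rhombic lip, migrate along the brain surface and then extend axons and form synapses. Newborn neurons carry a set of surface, cytoskeletal and RNA-binding proteins that serve migration and axon growth and are typically reduced as synapses mature. Several of the genes described here, such as Cd24a, Gpc2 and Igfbpl1, are known from newborn neurons in other parts of the brain.

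Values are log2 signals, on which a difference of 1 is 2-fold. The array medians lay between 7.89 and 7.94. A gene was counted as past the level filter when its highest array reached 8.41, the median of all probe sets with a single gene symbol. Of all genes, 10901 passed, as did 9 of the 10 described here, and those 9 lay above 8.41 at both E17.5 and P1. Islr2 did not pass. Where the lower value lay under 8.41, the size of a difference is inexact and no fold is given. The only error the file allows is how far probe sets of 1 gene disagree (645 genes). The standard deviation of a difference by this measure was 0.12 (P1 and E17.5), 0.10 (P14 and P1), 0.13 (P14 and E17.5), 0.18 (P5 and either P1 or E17.5) and 0.14 (P5 and P14). The spread between pools of mice was not measured. The signals did not follow the order of the labelled ages. Of 2120 genes with a range of at least 2-fold, 1835 (86.6%) had their P14-labelled value at or between the P1 and P5-labelled values. The reason was not tested, and with 1 array per age it cannot be told. The deposited labels are used throughout, so the directions given for the P5- and P14-labelled arrays depend on them. Only P1 against E17.5 uses neither array.

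The tissue carried its own markers on every array. Barhl1, a homeobox factor of rhombic lip derivatives, stood at 12.23 (E17.5), 11.79 (P1), 10.83 (P5-labelled) and 11.61 (P14-labelled). Slc17a6, a vesicular glutamate transporter, had values of 11.44, 11.17, 11.57 and 11.49 on the arrays taken in this order, which is kept below. The neuronal tubulin Tubb3 stood at 12.91, 12.83, 11.62 and 12.54.

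The start regions of 4 of the genes are shown because the data bear on them: these genes were low on the same array but took different courses to it. Promoter sequence from RefSeq (mouse build GRCm38.p6) matched 6 of the 10 genes, and for each the 150 bases outside the outermost annotated start were read. Gpc2 and Mex3a stand for genes that were already lower on the P14-labelled array, Stk32b for those that were low on the P5-labelled array alone, and Tmsb10 for those that differed little. The sequences run 5′ to 3′ on the strand of the gene, and capitals mark the GC box GGGCGG or its complement on the other strand.
Gpc2: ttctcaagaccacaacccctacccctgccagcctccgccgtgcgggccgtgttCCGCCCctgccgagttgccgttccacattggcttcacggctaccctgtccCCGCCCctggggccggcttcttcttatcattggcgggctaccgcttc
Mex3a: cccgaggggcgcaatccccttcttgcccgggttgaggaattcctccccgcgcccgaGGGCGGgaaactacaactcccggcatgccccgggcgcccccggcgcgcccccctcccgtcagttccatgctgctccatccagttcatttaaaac
Stk32b: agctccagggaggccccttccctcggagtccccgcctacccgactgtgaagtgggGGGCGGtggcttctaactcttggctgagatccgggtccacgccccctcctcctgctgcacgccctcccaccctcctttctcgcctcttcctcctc
Tmsb10: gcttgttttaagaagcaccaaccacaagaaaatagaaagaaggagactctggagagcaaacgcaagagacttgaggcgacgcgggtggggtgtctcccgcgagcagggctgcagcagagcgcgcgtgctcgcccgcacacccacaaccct
The windows are chr5:138280027-138280176 (minus strand) for Gpc2, chr3:88531796-88531945 (plus strand) for Mex3a, chr5:37717154-37717303 (minus strand) for Stk32b and chr6:72958749-72958898 (minus strand) for Tmsb10. The Gpc2 window lies within the annotated span of Stag3, and that of Mex3a overlaps the noncoding gene Gm38618.

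These windows were rich in CpG, and their motifs did not separate the courses. The 6 windows held 8 to 14 CpG dinucleotides, against a median of 3 over 22802 gene windows of the same length. On either strand, GGGCGG was found 2 times in Gpc2, 1 time each in Mex3a, Stk32b and Islr2, and not in Tmsb10 or Nnat. It occurred in 25.7% of all windows. The E-box CANNTG, the general site of basic helix-loop-helix factors, was found in none of the 6 and in 48.6% of all windows. CAGCTG, a special case of CANNTG, occurred in 8.18% of all windows, TATAAA in 8.64% and AACAAT in 5.82%, and none of the 6 windows held any of them. A match is only a run of letters, and no match speaks for these 150 bases alone.

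**Figure D1:**
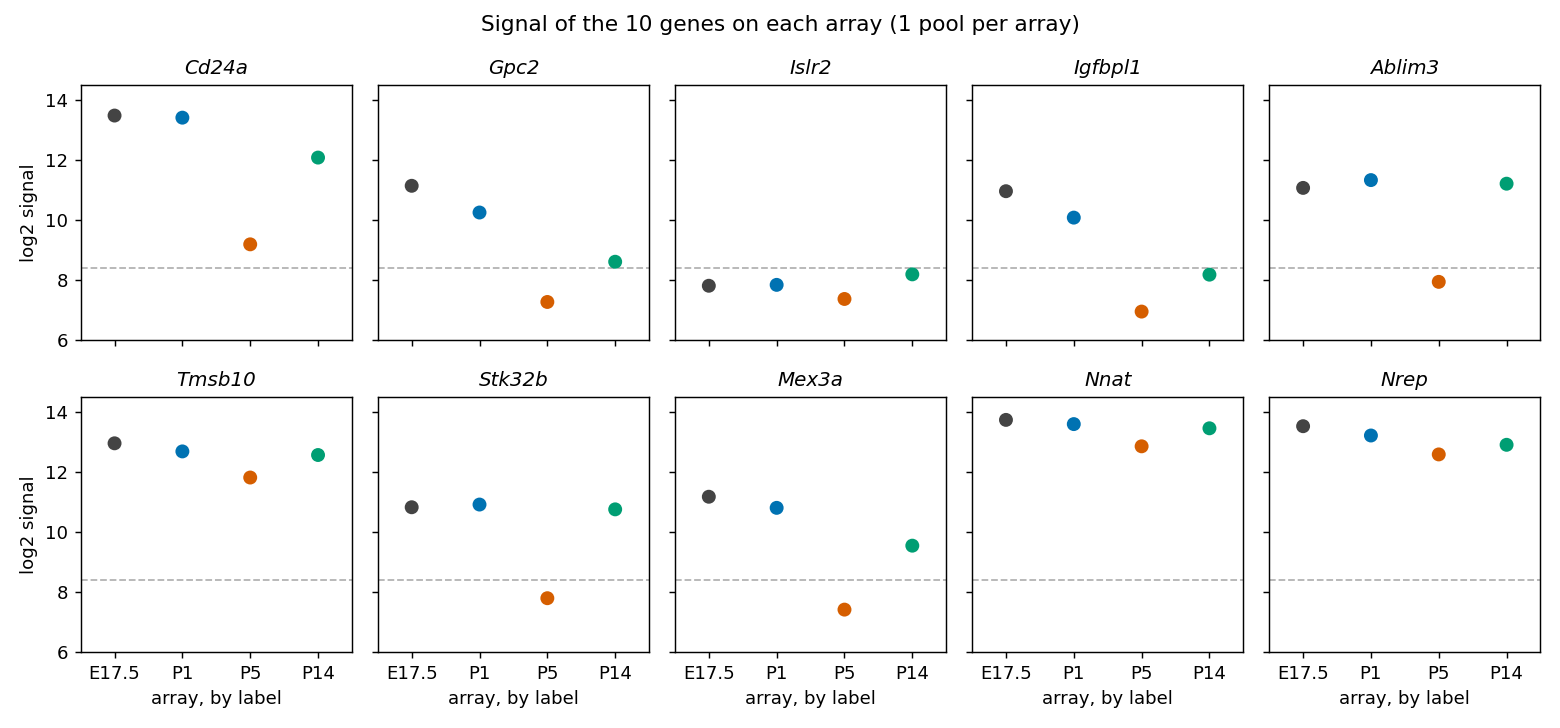
Log2 signal of each of the 10 genes on the 4 arrays, with 1 point per array (1 pool each, no error bars) and a dashed line at the level filter of 8.41. Cd24a, Gpc2, Igfbpl1, Ablim3, Stk32b and Mex3a were far lower on the P5-labelled array than at P1, Cd24a at 9.19 and 13.41, while Tmsb10, Nnat and Nrep stayed above 11.8 on every array and Islr2 stayed under 8.41.

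Of the 4 surface and secreted proteins, Cd24a, Gpc2 and Igfbpl1 were lower on the P14-labelled array than at P1, and Islr2 was not. Cd24a, a heavily glycosylated GPI-anchored surface protein of differentiating neurons, stood at 13.48 (E17.5), 13.41 (P1), 9.19 (P5-labelled) and 12.08 (P14-labelled). E17.5 and P1 were alike, the P14-labelled array was 2.51-fold below P1, and the P5-labelled array was 18.6-fold below P1. Gpc2, the glypican cerebroglycan, a heparan sulfate proteoglycan of growing axons, stood at 11.14, 10.25, 7.27 and 8.61. It was thus already 1.85-fold lower at P1 than at E17.5, a difference that uses neither the P5- nor the P14-labelled array. On the P14-labelled array it was 3.12-fold lower than at P1. Igfbpl1, a secreted protein related to the insulin-like growth factor binding proteins and found in newborn neurons, stood at 10.96, 10.08, 6.95 and 8.18. Its P1 level was 1.84-fold below E17.5, and its P14-labelled value differed from P1 by −1.90 on the log2 scale.

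Islr2 stayed under the level filter, so its small differences are inexact. This transmembrane protein with leucine-rich repeats and an immunoglobulin domain, which serves axon guidance, stood at 7.81, 7.84, 7.37 and 8.19. Its signal was highest on the P14-labelled array, its whole range was 0.82, and no array reached 8.41. The P5-labelled array was its lowest, but by 0.44 against E17.5 and 0.47 against P1.

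The cytoskeletal proteins parted. Ablim3, an actin-binding LIM protein, stood at 11.07 (E17.5), 11.33 (P1), 7.94 (P5-labelled) and 11.21 (P14-labelled). The P14-labelled array lay 0.12 below P1 on the log2 scale, a difference about as large as the spread between probe sets, while the P5-labelled array lay 3.39 below P1. Tmsb10, thymosin beta 10, which binds actin monomers, stood at 12.96, 12.69, 11.82 and 12.57. It was the only member with more than 1 probe set, and the other stood at 12.73, 12.53, 11.57 and 12.37. Both probe sets gave the same order of arrays, with differences between P5 and P1 of −0.87 and −0.96.

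Among the kinase, the RNA-binding protein and the small neuronal proteins, both courses recurred. Stk32b, a serine/threonine kinase, stood at 10.83, 10.92, 7.80 and 10.76, so that 3 arrays lay within 0.16 of each other and the P5-labelled array differed by −2.96 from the nearest of them, that labelled P14. Mex3a, an RNA-binding protein with KH domains, stood at 11.18, 10.81, 7.42 and 9.55, with the P14-labelled array 2.39-fold below P1. Nnat, neuronatin, a small imprinted membrane protein, stood at 13.74, 13.60, 12.86 and 13.46. Nrep, also known as P311, a small intracellular protein of developing and regenerating neurons, stood at 13.53, 13.22, 12.59 and 12.91. Nnat and Nrep stayed within 2-fold of E17.5 on every array, and the P5-labelled array was 1.67-fold and 1.55-fold below P1, respectively.

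Between E17.5 and P1, Gpc2 and Igfbpl1 had the lowest differences of the 10. None of the 10 was at least 2-fold higher or lower, a count near the background of 0.826% higher and 0.275% lower among all genes past the filter. Of the 10, 7 were below their E17.5 value and 3 above it (Ablim3, Stk32b and Islr2). Their median difference was −0.21, against −0.06 over all genes past the filter, most of which were thus also below E17.5. Gpc2 (−0.89) and Igfbpl1 (−0.88) had the 53rd and 55th lowest differences of the 10901 genes, and Mex3a (−0.37) the 938th. Cd24a, at −0.07, lay near the median of all genes.

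Between P1 and the P14-labelled array, 4 of the 10 were at least 2-fold lower, where 11 genes (0.101% of those past the filter) were. None was at least 2-fold higher (1.37% of all genes). The differences were −1.90 for Igfbpl1, −1.64 for Gpc2, −1.33 for Cd24a and −1.26 for Mex3a, which placed them 1st, 2nd, 5th and 7th from the lowest of all genes. The P1 and P14-labelled arrays also entered the choice of these genes, so this is a description. The remaining 7 included the neuronal transcription factor Sox11 (−1.04), the microtubule-associated ubiquitin ligase Mid1 (−1.17) and the BMP and Wnt antagonist Sostdc1 (−1.12). The others were Eif2s3y (−1.09), the small RNAs Snora33 (−1.36) and Snord118 (−1.35), and the unnamed gene 2810408A11Rik (−1.32). All but Sox11 were named after their values were seen. The other 6 members lay between −0.31 (Nrep) and 0.35 (Islr2). The median of the 10 was −0.23, against −0.01 over all genes.

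**Figure D2:**
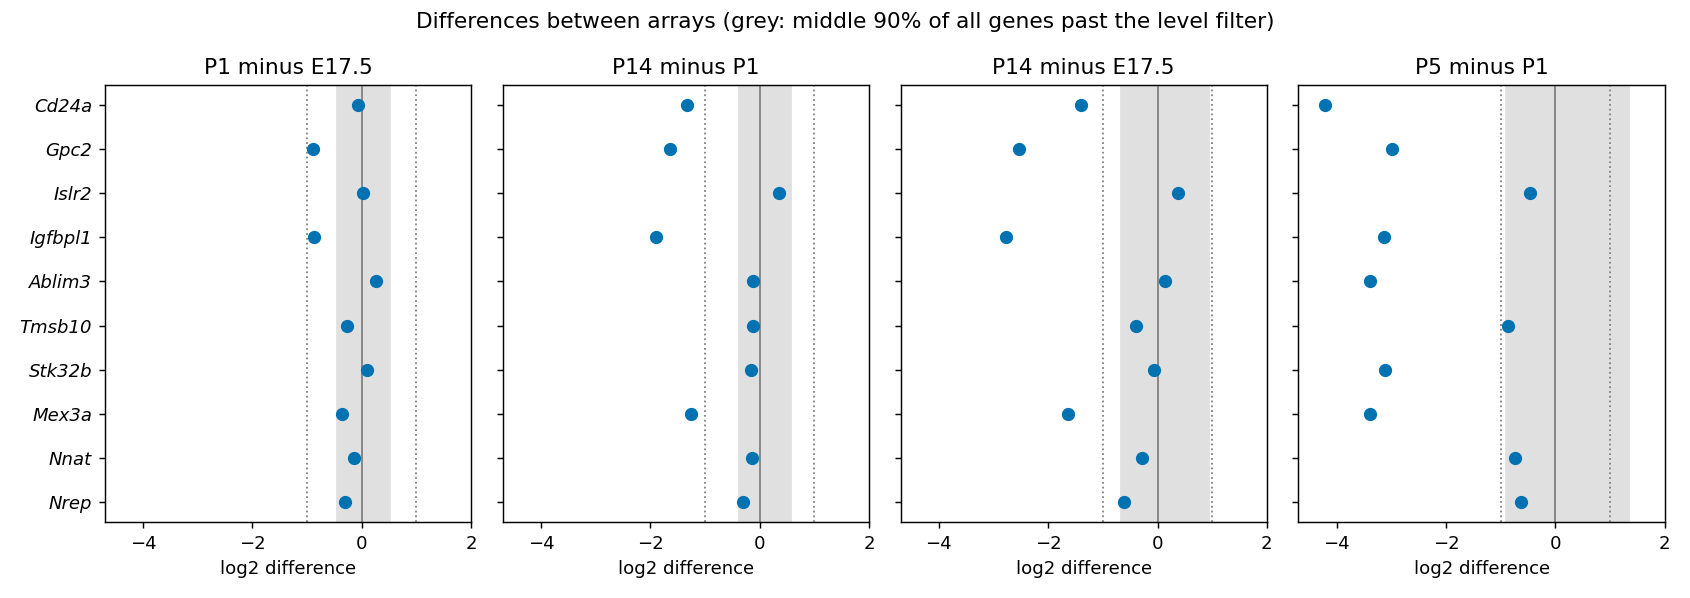
Log2 difference of each member between pairs of arrays, with 1 point per gene, dotted lines at 2-fold and a grey band holding the middle 90% of all genes past the level filter. Cd24a, Gpc2, Igfbpl1 and Mex3a lie between −1.90 and −1.26 for P14 minus P1, while the other 6 lie inside the band.

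Against E17.5, 4 of the 10 were at least 2-fold lower on the P14-labelled array, whereas 1.19% of all genes were lower and 4.55% higher by that much. The differences were −2.78 for Igfbpl1, −2.53 for Gpc2 (5.78-fold), −1.63 for Mex3a (3.10-fold) and −1.40 for Cd24a (2.64-fold). This comparison shares an array with each of the comparisons given above. Both of its arrays also entered the choice of these genes, so the count is a description.

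The comparisons with the P5-labelled array were used to choose the genes and are given as description alone. Of the 10, 6 were at least 2-fold lower there than at P1 (3.94% of all genes), 7 of 10 than at E17.5 (5.50%) and 6 of 10 than on the P14-labelled array (2.16%). The gene that differed between these counts was Tmsb10, at 1.14 below E17.5. All 10 had their lowest value on that array, where 34.2% of genes past the filter had theirs. No member was higher there than on another array, whereas 8.96% of all genes were at least 2-fold higher than at P1, 11.3% than at E17.5 and 4.50% than on the P14-labelled array. Differences from P1 ran from −4.22 (Cd24a) to −0.47 (Islr2).

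Where the P14-labelled value fell between P1 and the P5-labelled array differed from gene to gene. As a share of the P1 to P5 difference, the part already reached on the P14-labelled array was about 61% for Igfbpl1, 55% for Gpc2, 49% for Nrep, 37% for Mex3a and 32% for Cd24a. It was about 19% for Nnat, 14% for Tmsb10, 5.1% for Stk32b and 3.5% for Ablim3, and Islr2 lay on the other side of P1. Over all 429 genes at least 2-fold lower on the P5-labelled array than at P1, the median share was 26.7%, with quartiles of 15.0% and 36.5%. Cd24a lay between these quartiles and Mex3a just above them. The shares of the members are approximate. The P5-labelled values of Igfbpl1, Gpc2, Mex3a, Stk32b and Ablim3 lay under 8.41, where a smaller measured difference gives a larger share. Those of Nrep, Nnat and Tmsb10 rest on small P1 to P5 differences (−0.63, −0.74 and −0.87), with a spread between probe sets of 0.18.

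Profiles like those of the members were sought among the 10901 genes by the root mean square (RMS) difference of log2 values, each gene centred on its mean over the 4 arrays. The members themselves, predicted or unnamed genes, small RNAs and chemosensory receptors were left out of this search. Among the members, Gpc2 and Igfbpl1 lay 0.11 apart by this measure, Ablim3 and Stk32b 0.13, Tmsb10 and Nnat 0.09, and Cd24a and Mex3a 0.33. The median profile of the 10 stood at 0.72 (E17.5), 0.89 (P1), −2.07 (P5-labelled) and 0.04 (P14-labelled). It blends the differing courses of the members and is the profile of none of them. Nearest to this median profile were the potassium channel Kcnh4 and Dcx, a microtubule protein of migrating neurons (RMS 0.14 each). Zfp57, a zinc finger protein that maintains imprints, followed at 0.15, with the glycosyltransferase B3gnt5 and the transcription factor Ebf1 at 0.16 each. The sodium channel Scn9a and the membrane-bending protein Fnbp1l lay at 0.20 each. The matrix glycoprotein tenascin C, Tnc (0.21), the giant cadherin Fat4 (0.23) and Jpt1 (0.23) completed the 10. Their differences between the P14-labelled array and P1 ran from −0.99 (Ebf1) to −0.46 (Fnbp1l), a range that held no member. Dcx stood at 12.97 (E17.5), 12.88 (P1), 9.79 (P5-labelled) and 12.14 (P14-labelled). Likeness over 4 arrays rests on 4 values per gene.

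Sox11, a SoxC transcription factor of newborn neurons, was the nearest gene outside the 10 to 3 of them: Mex3a (RMS 0.21), Gpc2 (0.27) and Igfbpl1 (0.38). It stood at 12.52, 11.75, 8.91 and 10.71. The nearest such gene to Cd24a was Dcx (0.47), farther from it than the member Mex3a (0.33). For Stk32b the nearest outside the 10 was Slc10a4, a vesicular transporter-like protein of cholinergic and monoaminergic neurons (0.20), at 9.46, 9.28, 6.71 and 9.33. For Ablim3 it was Scn9a (0.26), at 10.60, 10.96, 7.59 and 10.22. The flatter profiles were common. Within an RMS of 0.1 there were 338 genes for Nrep, 302 for Nnat, 126 for Tmsb10 and 39 for Islr2, whereas the other 6 members had none. Nearest to the flatter members were Kdm1a (Nrep), Racgap1 (Nnat) and Mmp24 (Tmsb10), at 0.01 each, and Prp2 (Islr2) at 0.03.

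**Figure D3:**
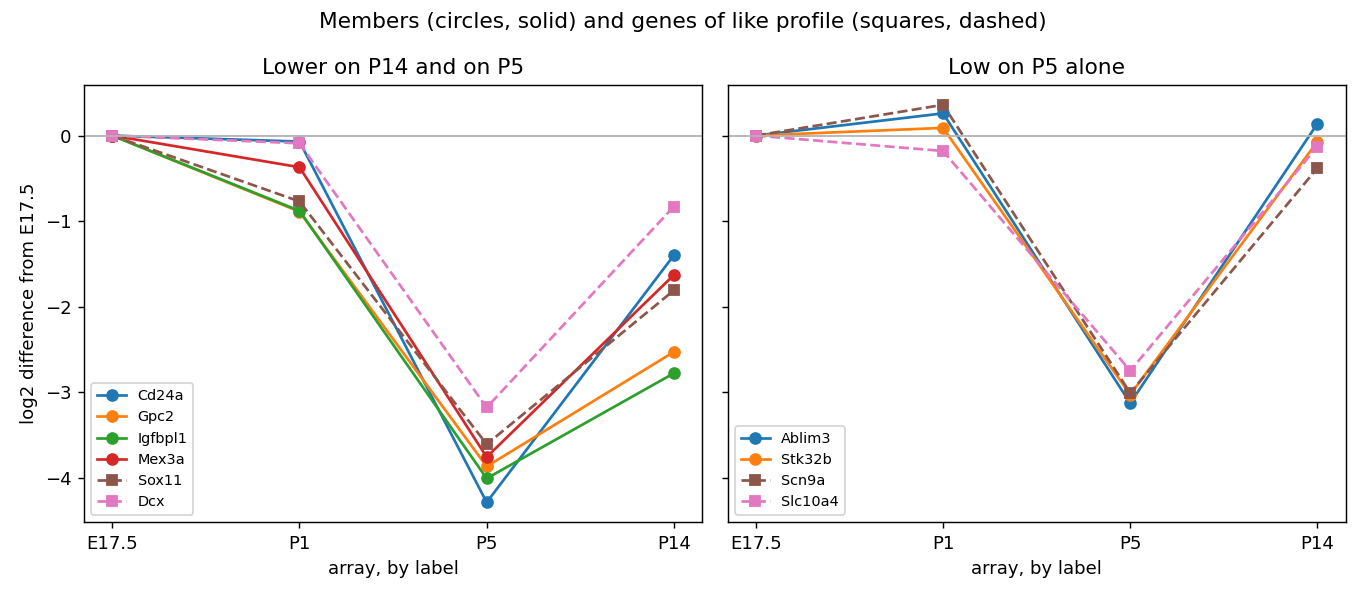
Log2 difference from the E17.5 array for 6 members (circles, solid lines) and for the genes nearest to them (squares, dashed lines), 1 value per array. In the left panel Cd24a, Gpc2, Igfbpl1 and Mex3a differ from E17.5 by −2.78 to −1.40 on the P14-labelled array, and in the right panel Ablim3 (0.14) and Stk32b (−0.07) lie near 0 there.

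Since Slc10a4 is known from cholinergic and monoaminergic neurons, 8 genes of cholinergic and motor neurons were looked up after the values had been seen. The vesicular acetylcholine transporter Slc18a3 stood at 10.01 (E17.5), 9.93 (P1) and 7.41 (P5-labelled), and on the P14-labelled array it differed from P1 by 0.07. The choline transporter Slc5a7 stood at 10.31, 10.27, 8.40 and 10.12. Both were low on the P5-labelled array alone, as were Ablim3 and Stk32b. Chat, which makes acetylcholine, stood at 8.17, 8.14, 7.22 and 8.19 and did not pass the filter, nor did Isl1, Mnx1 and Prph. Ache, acetylcholinesterase, went the other way, from 8.49 and 9.12 to 11.24 and 10.57. The part of these cells in the values of Ablim3 and Stk32b was not tested.

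Many other young neuron genes were also low on the P5-labelled array. All 30 genes of a young neuron list without the members passed the filter, and 25 were lowest on that array (34.2% of all genes past the filter). Against P1, 14 of 30 were at least 2-fold lower and 2 higher (3.94% and 8.96% of all genes). The median was −0.89, where the median of all genes was 0.05. The largest negative differences were those of Dcx (−3.09), Sox11 (−2.84), the polysialyltransferase St8sia2 (−2.37), Jpt1 (−2.32) and the growth cone protein Gap43 (−1.82). Among those at least 2-fold higher was the actin-linked Tagln3 (1.15). On the P14-labelled array, 1 of 30 was at least 2-fold lower than at P1 (Sox11) and none higher (0.101% and 1.37% of all genes). The median there was −0.12. St8sia2, which builds polysialic acid on NCAM, stood at 11.90, 11.87, 9.50 and 11.87, low on the P5-labelled array alone. At P1, 2 of 30 were at least 2-fold lower than at E17.5 and none higher (0.275% and 0.826% of all genes), with a median of −0.08. These 2, Nhlh1 and Nhlh2, passed the filter only through the E17.5 array. The list was written with earlier results of these data known.

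Genes of mature neurons differed in the opposite direction. Among 21 that passed, 14 exceeded P1 at least 2-fold on the P5-labelled array and 1 was lower (8.96% and 3.94% of all genes). The median was 1.94. However, Syt2, Grin2a, Scn4b and Pvalb passed only through the P5-labelled array, so they could hardly be counted as lower there. The heavy neurofilament Nefh (3.68), the vesicular glutamate transporter Slc17a7 (3.52) and the vesicle fusion protein Vamp1 (3.38) had the largest positive differences. The microtubule protein Mapt (−1.31) and Map2 (−0.39) had the only negative ones. On the P14-labelled array, 6 of 21 were at least 2-fold higher than at P1 and none lower (1.37% and 0.101% of all genes). The median there was 0.47.

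Glial lists had medians above P1 on the P5- and P14-labelled arrays, where members were low. Among 19 oligodendrocyte and myelin genes that passed, 18 exceeded P1 at least 2-fold on the P5-labelled array (8.96% of all genes). The median level was 7.71 (E17.5), 8.25 (P1), 12.35 (P5-labelled) and 9.63 (P14-labelled). Mog, Mal, Ermn, Opalin, Gjb1 and Aspa passed only through the P5-labelled array, so they could hardly be counted as lower there. Mobp (5.86), Ermn (5.72) and Mog (5.52) had the largest differences. For 15 astrocyte genes the median level was 9.81, 10.38, 11.83 and 11.31, with 7 at least 2-fold higher on the P5-labelled array than at P1, led by Ntsr2 (3.01), Gjb6 (2.89) and S100b (2.81). For 12 of 13 microglial genes past the filter it was 8.33, 8.82, 9.36 and 9.06, and 3 were at least 2-fold higher, Itgam (1.14), Tmem119 (1.09) and Ctss (1.07). These 3 lay under 8.41 at P1, and Itgam, like the astrocyte gene Gjb6, passed only through the P5-labelled array. The 9 endothelial genes had medians of 9.19, 8.94, 9.32 and 9.16, and none was 2-fold apart, with Slc2a1 (0.93), Flt1 (0.68) and Abcb1a (0.64) farthest. No marker on these lists was listed at 0. On the P14-labelled array, 1.37% of all genes exceeded P1 at least 2-fold. So did 8 of the 19 oligodendrocyte genes, 5 of the 15 astrocyte genes and none of the 12 microglial genes. The medians of these lists were 0.88, 0.53 and 0.43, respectively. The part of glial RNA in the lower values of the members was not tested.

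Most progenitor and cell cycle genes that passed were lower on the P5-labelled array than at P1, largely by less than 2-fold. Of 16 on the array, 14 passed the filter. Their median difference between the P5-labelled array and P1 was −0.73, against 0.05 over all genes. At least 2-fold, 2 were lower and 1 was higher (3.94% and 8.96% of all genes). Prom1 (1.25), Msi1 (−1.08) and Pax6 (−1.02) were farthest. Prom1 passed only through the P5-labelled array, and Pax6 is also a marker of pontine neurons. Against E17.5, 6 of the 14 were at least 2-fold lower on that array and 1 higher (5.5% and 11.3% of all genes). Like most of the young neuron list, 12 of the 14 had their lowest value there (34.2% of all genes past the filter). On the P14-labelled array their median against P1 was 0.01 and none was 2-fold apart, while 4 of the 10 members were at least 2-fold lower there.

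**Figure D4:**
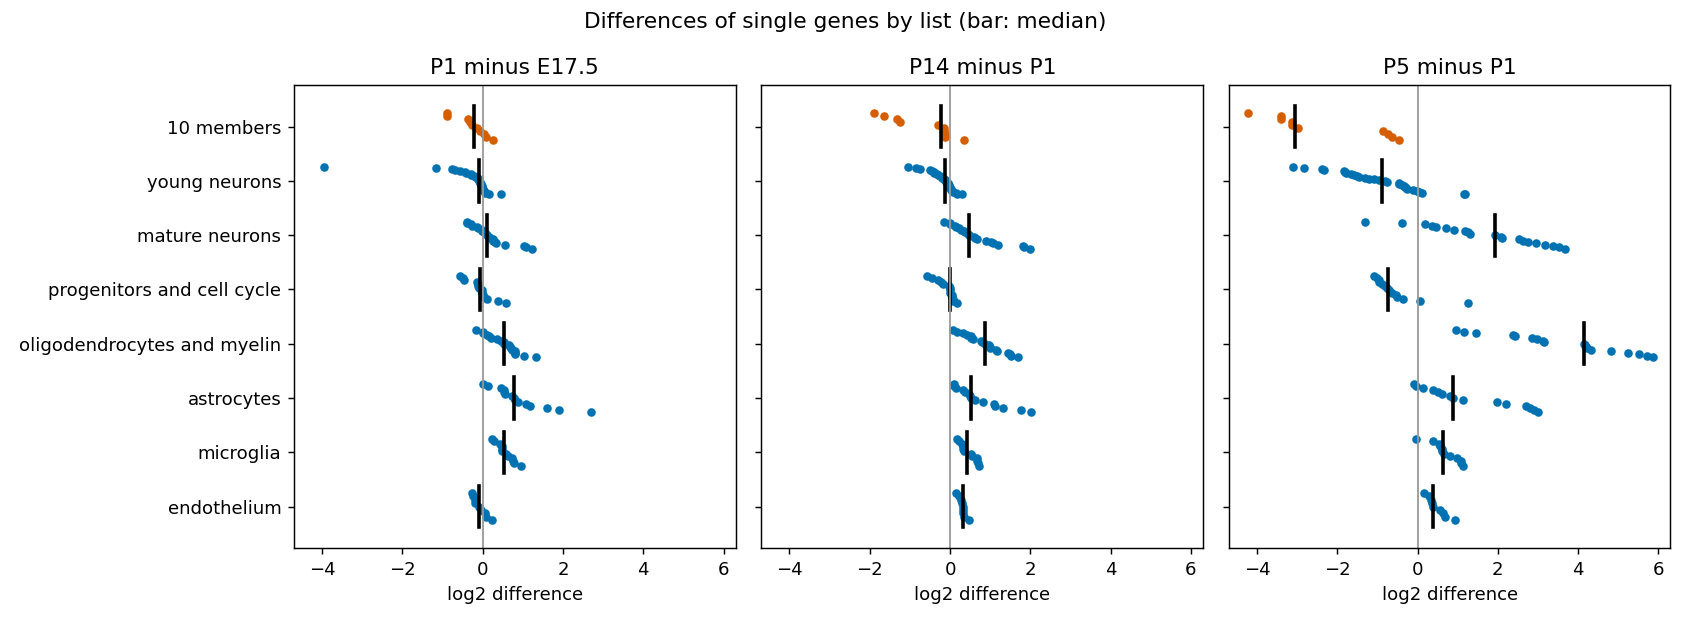
Log2 difference of single genes past the level filter in 7 lists and of all 10 members (orange), 1 point per gene, with a black bar at the median. For P5 minus P1 the medians are −3.05 for the members, −0.89 for young neurons, 1.94 for mature neurons and 4.15 for oligodendrocytes and myelin. The members were chosen for low values on the P5-labelled array, so their median is description alone, and no member lies between −2.98 and −0.87.

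The relatives of Mex3a differed in the same direction. Mex3b stood at 12.07 (E17.5), 11.48 (P1), 9.91 (P5-labelled) and 10.78 (P14-labelled), and Mex3d at 11.27, 11.05, 9.65 and 10.59. Mex3c stood at 11.46, 11.29, 11.10 and 11.03, a range within 2-fold. Against P1, Mex3b (−1.57) and Mex3d (−1.40) were at least 2-fold lower on the P5-labelled array and within 2-fold on the P14-labelled array. Mex3a had the largest differences from P1 of the 4 paralogs on both arrays.

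The other glypicans and syndecans above 8.41 at P1 (Gpc1, Gpc6, Sdc1 and Sdc3) did not share the low values of Gpc2. Among 8 other glypicans and syndecans that passed, none was at least 2-fold lower on the P5- or P14-labelled array than at P1. However, Gpc3 (7.48), Gpc5 (7.61), Sdc2 (8.19) and Sdc4 (7.98) lay under 8.41 at P1. They passed only through the P5- or P14-labelled arrays, so they could hardly be counted as lower there. Sdc2 (1.32) and Sdc4 (1.26) were at least 2-fold higher on the P5-labelled array, and Gpc3 (1.14) on the P14-labelled array. Gpc1 stood at 10.53, 10.81, 10.60 and 10.59. The enzymes of heparan sulfate synthesis and the heparin-binding ligands had a median of −0.08 for P5 against P1 over 13 genes. Among them Ndst4 was 2.19 higher and Hs6st1 differed by −1.04. The ligands midkine, Mdk (9.96, 9.71, 9.84 and 9.85), and pleiotrophin, Ptn (12.08, 12.32, 12.06 and 12.30), stayed within 2-fold.

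In the insulin-like growth factor axis, no other gene was at least 2-fold lower than at P1 on the P5- or P14-labelled array. Among 10 that passed, 3 exceeded P1 at least 2-fold on the P5-labelled array: Igfbp5 (1.25), Igf2 (1.20) and Igfbp7 (1.00). On the P14-labelled array, Igf2 differed from P1 by 1.92. The receptor Igf1r stood at 10.92, 10.62, 10.11 and 10.36, and Insr at 10.53, 10.43, 9.93 and 10.10, both lowest on the P5-labelled array and within 2-fold.

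The relatives of Stk32b, Ablim3 and Tmsb10 differed less between arrays than these members did. Stk32c stood at 9.66, 10.19, 8.62 and 9.74, with the P5-labelled array 1.57 below P1, whereas Stk32a stood at 7.58, 8.21, 8.20 and 8.30. Ablim1 stood at 10.37, 10.90, 10.11 and 10.75, with the P5-labelled array its lowest. Tmsb4x, the other main thymosin beta of brain, stood at 12.88, 12.75, 12.33 and 12.59, and Pfn1, Pfn2, Cfl1 and Cfl2, which also act on actin, stayed within 2-fold of P1. Blcap, the gene in whose span Nnat lies, stood at 10.08, 10.23, 9.93 and 10.14. Islr, the relative of Islr2, stood at 7.68, 7.84, 9.25 and 9.21, higher on the P5- and P14-labelled arrays.

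**Figure D5:**
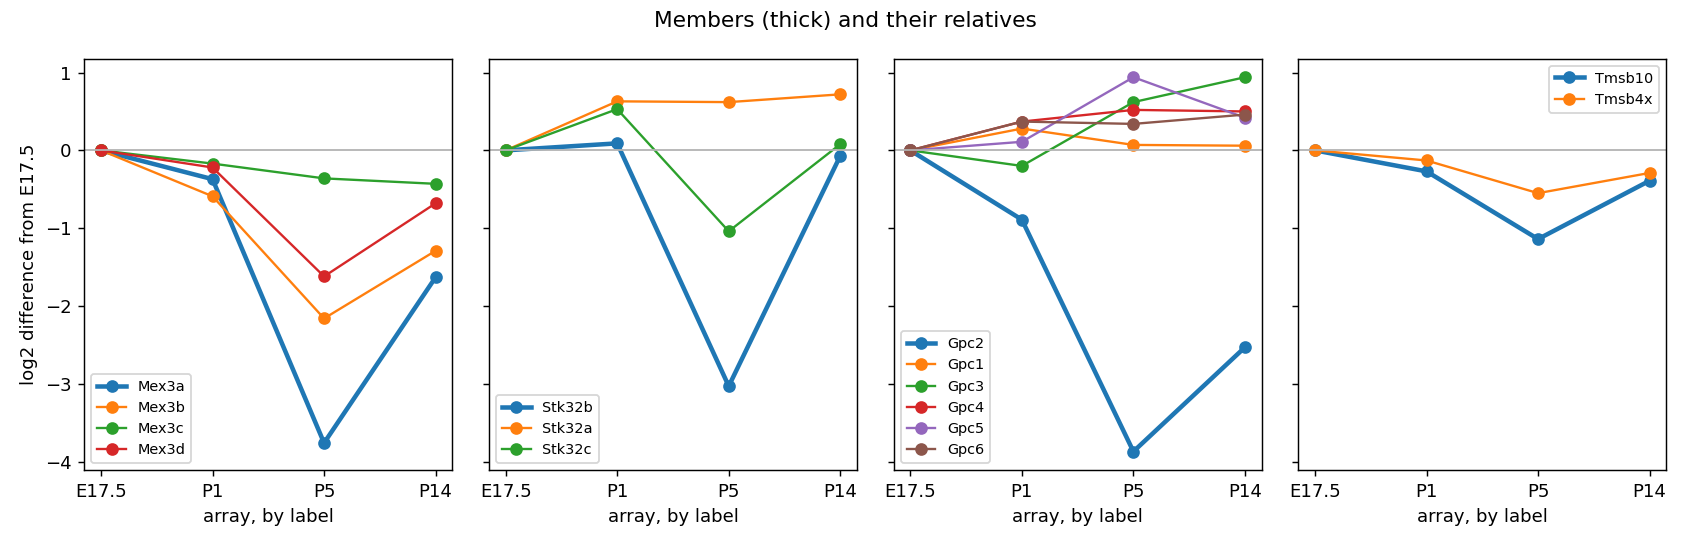
Log2 difference from the E17.5 array for 4 members (thick lines) and their relatives (thin lines), 1 value per array. On the P5-labelled array Mex3a, Stk32b, Gpc2 and Tmsb10 have the lowest value of their panels, and Gpc1, Gpc3, Gpc4, Gpc5 and Gpc6 lie above 0.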

How the data were processed

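Total RNA from 4 pools was hybridised to 4 arrays. The authors deposited normalised log2 signals made with Affymetrix Expression Console, per the submitters' processing notes; its version and the normalisation method are not stated there. The scale was inferred from the range of the values (1.84 to 14.72). Gene names came from the platform annotation: of 35556 probe sets, 21789 had 1 symbol, 1621 several and 12146 none. Names were looked up in RefSeq (GRCm38.p6). Groups came from the labelled age. Differences were taken per gene on the deposited scale and rounded to 2 decimals with Python 3.11.15 and pandas 2.3.3, and the counting, spread and likeness steps were tested on simulated data. The members and lists were chosen with earlier results of these data known, and the cholinergic list after seeing these values. Genes named were the members, the 10 nearest to their median profile, the nearest to each member, the extremes of each list (apart from a gene not reported here), and relatives. Predicted or unnamed genes, small RNAs and chemosensory receptors were not eligible as nearest genes. Alternatives were the mean of probe sets, median centring, quantile normalisation, no level filter, a threshold of 1.5 and a second likeness measure. Precision is limited by having 1 array per age.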

Additional observations from a re-analysis of the deposited data

How the results depend on the processing

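With a threshold of 1.5 on the log2 scale, 2 members in place of 4 were lower on the P14-labelled array than at P1 (Igfbpl1 and Gpc2), and 2 of all genes in place of 11; without the level filter 17 genes were. The other member counts and medians stayed within 1.5 times or within the spread between probe sets under every alternative run on them. Quantile normalisation moved a member's difference by at most 0.14, median centring by at most 0.05 and the mean of probe sets by at most 0.04, and no direction of a called value changed. Under quantile normalisation no young neuron gene, in place of 1, was 2-fold lower on the P14-labelled array than at P1, and under median centring 1 progenitor gene in place of 2 was lower on the P5-labelled array. Of the 10 genes nearest to the median profile, 8 were shared when the largest absolute difference replaced the RMS, and 10 without the filter. At the threshold of 1.5, the counts of all genes on the P5-labelled array against P1 were 442 higher and 150 lower, in place of 977 and 429. List counts against P1 also moved there. On the P5-labelled array no young neuron gene was higher (in place of 2), no mature neuron gene lower (1), no progenitor gene lower (2) or higher (1) and no microglial gene higher (3). On the P14-labelled array no young neuron gene was lower (1), and 3 mature neuron (6), 2 oligodendrocyte (8) and 2 astrocyte genes (5) were higher. No paired analysis was possible because each age had a single array. Signal near background limits the differences of Gpc2, Igfbpl1, Mex3a, Ablim3 and Stk32b on the P5-labelled array.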
